A study of Mus musculus with 6 samples.

Results

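Short cortical RNA reads that end in CCA, the 3 bases found at the 3′ end of every mature tRNA, were compared between mice with a cut spinal cord and mice with an intact one. A read was taken when it was 17 to 24 nt long, had no match in 1174 annotated miRNA hairpins, ended in CCA and had a summed count of at least 50 over all libraries. This gave 953 distinct reads of 2543604 in all, or of 27055 distinct reads in the same range of length and count. In 237 of them the body, which is the read without its CCA, matched a mitochondrial tRNA, and the other 716 are called other reads here. The reads were chosen by their length, ending and summed count, so these are given as a description and not as a result.

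The 6 libraries hold small RNA from the sensorimotor cortex of male C57BL/6J mice at postnatal day 90, taken 7 days after surgery, with 3 libraries per group. Control mice had the cervical cord exposed and left undamaged, and mice of the injured group (SCI) had it completely transected at the C5/6 level. The tissue measured thus lies far from the lesion, which cuts axons that cortical neurons send down the cord. The labels state that samples were collected individually, and p-values measure the spread between these 3 and 3 samples. Levels are counts per 1000000 of a library's deposited total (CPM), as mean ± SD of n = 3, and log2 fold changes are SCI over control ± SE.

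A tRNA gene does not encode its CCA. The enzyme tRNA nucleotidyltransferase adds it after the transcript has been trimmed at its 3′ end, and the amino acid is later loaded on its last A. A short read that ends in CCA can therefore come from the end of a processed tRNA, or from any RNA that holds these 3 letters. Fragments from this end are known as 3′ tRNA fragments or tRF-3 and begin within the T loop, a hairpin loop near the 3′ end. Many nuclear tRNAs carry a methyl group on an adenosine of that loop (m1A58, on the base at position 58 of the standard numbering), which can make reverse transcriptase stop or put in a wrong base. The 22 mitochondrial tRNAs serve translation inside mitochondria and are processed there from long transcripts. In bulk tissue, fewer cells of a type and less of an RNA per cell cannot be told apart.

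The reads on which the results below turn are printed here 5′ to 3′ from the deposited tables, with the CCA in capitals. The first 6 belong to mitochondrial tRNAs of tryptophan, valine and lysine and show how reads of 1 tRNA differ only in where they begin.
mt-Tw, 17 nt: aagtttaacttctgCCA
mt-Tw, 18 nt: caagtttaacttctgCCA
mt-Tv, 18 nt: caatgaacactctgaCCA
mt-Tv, 19 nt: ccaatgaacactctgaCCA
mt-Tv, 22 nt: tgaccaatgaacactctgaCCA
mt-Tk, 22 nt: cttaaaatctccatagtgaCCA
The next 5 are abundant other reads of 17 and 18 nt. The first 2 bodies match the 3′ end of nuclear tRNA genes, n-TVcac9 (valine) and the trio n-TSaga9, n-TStga1 and n-TStga2 (serine). The 2 proline-like bodies differ by 1 base from n-TPtgg2 (proline), and the unassigned one matched none of the genes read here.
n-TVcac9, 17 nt: accgggcggaaacaCCA
serine trio, 18 nt: atcctgccgactacgCCA
proline-like, 17 nt: tcccggacgagcccCCA
proline-like, 18 nt: atcccggacgagcccCCA
unassigned, 18 nt: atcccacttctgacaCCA
The last 4 are 22-nt reads in pairs that differ only at the 19th base from the 3′ end, here the capital.
n-TGccc7, with A: tcgAttcccgggcggcgcacca
n-TGccc7, with T: tcgTttcccgggcggcgcacca
unassigned pair, with A: tcgAttcccggccaatgcacca
unassigned pair, with T: tcgTttcccggccaatgcacca

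Together the 953 reads made up 649666 counts, and 886 of them were seen in all 6 libraries. They took 0.502%, 0.4998% and 0.594% of the control libraries and 0.567%, 0.594% and 0.573% of the SCI libraries, with 95% Wilson intervals at most 0.0085 points wide, which cover counting error only since the reads carry no molecular identifiers. Mitochondrial reads made up 36.9% of these counts from 24.9% of the sequences. A further 46221 distinct reads ended in CCA but fell short of the summed count.

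CCA was the most frequent of all 64 possible endings among short reads and an ordinary one among longer reads. At 17 to 18 nt it ended 20.1% of the counts without a hairpin match, ahead of GGT at 9.84%. At 19 to 24 nt it ended 1.85% and ranked 25th. Most bodies were followed by little else. Of all reads of the same body with 3 further bases, a median of 98.8% for mitochondrial and 98.5% for other members had CCA there. In 202 mitochondrial and 570 other members this share was at least 80%, and these are called CCA-specific. Bodies entered only through a CCA read with a summed count of at least 50, which favours a high share. No such share is given here for bodies with the 63 other endings. The label therefore describes the letters and does not show that a read comes from a tRNA. It also covers some reads with a run of T or with adapter-like letters, described further on. The 146 other members below 80% held 9.00% of the counts.

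The body of 168 mitochondrial members, with 227915 of 240045 counts, lay at the very 3′ end of the annotated gene, and that of the remaining 69 lay inside a gene. In 22 mitochondrial members the whole read, CCA included, occurs in a mitochondrial tRNA gene, and of the 22 genes mt-Ty itself ends in CCA, so for these the CCA can be encoded. Of the other members, 37 with 61868 counts matched the 3′ end of a nuclear tRNA gene in RefSeq (GRCm38.p6). This is a lower bound, since the 3′ end of only 19 of 408 such genes could be read from the sequences used here. Among other members, 60 also matched an annotated transcript over their whole length, 57 had a body that occurs in a miRNA hairpin, and 43 lay 1 mismatch away from a mitochondrial tRNA.

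The mitochondrial and the other reads differed in their most abundant length. Mitochondrial reads were most abundant at 17 nt (73597 counts) and 18 nt (60116) and then at 22 nt (27750). Of the counts at 17 nt, 54552 came from 1 mt-Tw read, so the lead of 17 nt over 18 nt rests on that read. Other reads had 137478 counts at 18 nt, 86811 at 17 nt, only 16337 at 19 nt and 75326 at 22 nt. In the standard numbering, where the last A of the tRNA is position 76, reads of 17, 18, 19 and 22 nt begin at positions 60, 59, 58 and 55. This counts back along a tRNA of standard form, which was not checked for the mitochondrial tRNAs. In a tRNA of standard form, an 18-nt read thus stops just short of the base that m1A58 names, and a 19-nt read begins on it.

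Some 22-nt reads shared a start inside the T loop. In a tRNA of standard form, a length of 22 nt and a CCA end already set the start at position 55. This start is therefore a description and not a result. The loop's conserved letters TCNANNC, searched on the sequenced strand as the first 7 bases, began 38 of 148 CCA-specific other reads of 22 nt, which held 45.7% of their counts. They began 6 of 4140 hairpin-free 22-nt reads with another ending, or 0.145%. Among mitochondrial 22-nt reads they began 3 of 28, with 0.995% of the counts. Hairpin-free reads with another ending are not bound to that start, so they are no independent contrast. The letters also ask for A at position 58, so reads with another base there cannot match. A match describes these letters only.

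2 mitochondrial tRNAs held most of the mitochondrial counts. The tryptophan tRNA mt-Tw (ENSMUSG00000064346.1, chromosome M, 4950 to 5016, plus strand) gave 34.8% and the valine tRNA mt-Tv (ENSMUSG00000064338.1, 1025 to 1093, plus strand) 30.1%. The lysine tRNA mt-Tk (7700 to 7764, plus strand) followed with 6.66%, the threonine tRNA mt-Tt (15289 to 15355, plus strand) with 4.18% and the proline tRNA mt-Tp (15356 to 15422, minus strand) with 3.55%. The phenylalanine tRNA mt-Tf (1 to 68, plus strand), the serine tRNA mt-Ts2 (11613 to 11671, plus strand) and the glutamine tRNA mt-Tq (3772 to 3842, minus strand) gave between 2.04% and 2.34% each. All 22 genes had members, the fewest counts being 403 for mt-Ts1.

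The share of 17 to 18 nt reads differed widely between these tRNAs. In the control libraries it was 85.6% ± 2.64 for mt-Tw, 61.9% ± 8.38 for mt-Tf, 54.6% ± 5.42 for mt-Tt and 50.2% ± 5.44 for mt-Tk. It was 38.6% ± 6.42 for mt-Tv, 31.4% ± 4.29 for mt-Ts2, 24.6% ± 4.05 for mt-Tp and 18.9% ± 4.85 for mt-Tq. mt-Tw lay above each of the other 7 in every library, whereas neighbours such as mt-Tt and mt-Tk overlapped. For mt-Tw a single 17-nt read supplied most of the counts, 65.6% of its family of reads with the same last 17 bases. For mt-Tv the 18-nt read supplied 34.2%, the 22-nt read 22.5% and the 19-nt read 15.8%.

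The question of the design is whether these classes differ between SCI and control cortex, and in none of the 4 sums did the groups separate. Mitochondrial reads of 17 to 18 nt stood at 1150, 1145 and 1175 CPM in control and at 1222, 1225 and 998.6 in SCI. Mitochondrial reads of 19 to 24 nt stood at 1013, 800.7 and 963.6 CPM in control and at 925.6, 998.0 and 709.0 in SCI. For both, SCI 3 was the lowest of all 6 libraries and SCI 1 and SCI 2 were not. Other reads of 17 to 18 nt stood at 1640, 1860 and 2083 CPM in control and at 2103, 1823 and 2136 in SCI. Other reads of 19 to 24 nt stood at 1214, 1192 and 1721 CPM in control and at 1422, 1891 and 1891 in SCI, so control 3 lay among the SCI libraries.

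All non-hairpin reads were summed by their last 3 bases and length class and tested together with edgeR's quasi-likelihood test, which called 1 of 130 such sums lower (0.769%) and 0 higher. None of the 4 CCA sums was called in edgeR or in DESeq2, which called 8 higher (6.15%) and 6 lower (4.62%). None reached an unadjusted p under 0.05 in edgeR, as 20 higher (15.4%) and 17 lower (13.1%) of the 130 did, and none was without overlap in CPM, as 38 higher (29.2%) and 5 lower (3.85%) were. The log2 fold change was -0.18 ± 0.15 (adjusted p = 0.444) for mitochondrial reads of 17 to 18 nt and -0.25 ± 0.19 (adjusted p = 0.434) for those of 19 to 24 nt. Without SCI 3 these were -0.032 and -0.063, and with total count scaling -0.011 and -0.077. It was -0.06 ± 0.11 (adjusted p = 0.728) for other reads of 17 to 18 nt, which turned to 0.12 with total count scaling, and 0.15 ± 0.16 (adjusted p = 0.531) for those of 19 to 24 nt, which came to 0.023 without adapter-like reads. The fits' scaling factors ran from 0.89 in control 1 to 1.17 in SCI 3, which is why the fitted mitochondrial values lie below the ratio of the CPM means.

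The balance of short and long reads within a library does not depend on scaling, and it too overlapped between the groups. The ratio of 17 to 18 nt over 19 to 24 nt reads was 1.14, 1.43 and 1.22 in control and 1.32, 1.23 and 1.41 in SCI for mitochondrial reads. For other reads it was 1.35, 1.56 and 1.21 in control and 1.48, 0.964 and 1.13 in SCI. limma on log2 ratios over 65 endings gave 0.07 ± 0.19 (adjusted p = 0.839) for mitochondrial and -0.22 ± 0.23 (adjusted p = 0.553) for other reads. It called 0 of the 65 endings, with 14 at an unadjusted p under 0.05 (21.5%), neither CCA class among them; DESeq2 cannot be run on ratios. With the border moved to 17 to 19 against 20 to 24 nt the mitochondrial value turned to -0.15, and without control 1 to -0.0048.

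By single length, 2 of 16 sums separated the groups, 1 higher and 1 lower in SCI. Over all endings by single length, 27.9% of 520 sums were higher and 7.31% lower without overlap, so 1 and 1 of 16 are not above the background. Mitochondrial reads of 19 nt stood at 285.3, 236.5 and 254.0 CPM in control and at 180.3, 212.7 and 156.0 in SCI, all SCI libraries below all controls. Other reads of 21 nt stood at 132.8, 107.2 and 256.1 CPM in control and at 258.5, 392.9 and 342.6 in SCI, where SCI 1 lay only just above control 3. Neither sum was tested, and each rests largely on 1 read, the 19-nt mt-Tv read and a 21-nt read with a run of T that is described further on.

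Of the 953 reads, 883 passed the count filter and were tested among 24640 sequences of every kind, and 0 were called in edgeR at an adjusted p under 0.05, as were 0 of all sequences. At an unadjusted p under 0.05, 101 members were higher and 66 lower in SCI, which is 11.4% and 7.47% of those tested, beside 9.72% and 7.46% of all sequences. DESeq2 called 19 members higher and 10 lower, which is 2.15% and 1.13% of those tested, beside 4.8% and 1.85% of all sequences. Of the 19, 14 hold the adapter-like stretches described further on, and without such reads 0.581% of the tested members were called higher. The median log2 fold change was 0.06 over the tested members and 0.03 over all sequences tested. Groups did not overlap for 124 members that were higher and 87 that were lower, or 14.0% and 9.85%, beside 12.5% and 10.9% of all sequences. The unadjusted and non-overlap shares of the members thus lay near those of the whole table, while DESeq2 called a smaller share of the members than of all sequences in both directions. Adapter-like reads with other endings were not taken out of the whole table. The 0.581% therefore has no like share beside it, and the part of such reads in the 4.8% was not tested. Without SCI 1, edgeR called 24 members higher and 4 lower. These were 2.55% and 0.425% of those tested, beside 5.74% and 0.587% of all sequences. Of the 24, 22 were adapter-like. The 4 lower reads were the 19-nt mt-Tv read, both proline-like reads and an unassigned 17-nt read, ccccacgttgggcgCCA, chosen here after its values were seen. Added up by their last 17 bases, 309 CCA families were tested among 11573, and 0 were called in edgeR. At an unadjusted p under 0.05 in edgeR, 29 were higher and 26 lower. These were 9.39% and 8.41% of the CCA families tested, beside 7.47% and 5.9% of all families. DESeq2 called 5 higher and 5 lower, or 1.62% each, beside 2.93% and 1.14% of all families.

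Several reads of the valine tRNA mt-Tv stood lower in every SCI library, none of them called in edgeR with all 6 libraries, while reads with another start overlapped; the difference between starts was not tested. The family's 19-nt read stood at 165.5, 136.2 and 120.1 CPM in control and at 38.8, 61.8 and 43.8 in SCI, so that every SCI library lay below every control. The log2 fold change was -1.59 ± 0.24 (edgeR adjusted p = 0.117, or 0.0383 without SCI 1, DESeq2 adjusted p = 0.00102), with -1.84 to -1.44 when single libraries were left out. The 22-nt read stood at 201.7, 152.7 and 149.3 CPM in control and at 95.6, 126.8 and 75.5 in SCI, again without overlap (-0.80 ± 0.24, edgeR adjusted p = 0.152). The 18-nt read, which lacks only the first base of the 19-nt read, stood at 161.7, 269.4 and 207.6 CPM in control and at 203.5, 229.5 and 199.7 in SCI, with overlapping groups (-0.04 ± 0.19). This value turned to 0.14 without control 2. The 20-nt, 21-nt and 24-nt reads of the family were lower in every SCI library too, and the 17-nt and 23-nt reads overlapped.

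Accordingly, 17 to 18 nt reads took a larger share of mt-Tv in SCI, 51.0%, 49.8% and 56.1%, than in control, 31.4%, 43.8% and 40.6%, with Wilson intervals at most 2.28 points wide. Of the 22 mitochondrial tRNAs this share was without overlap higher in 1, mt-Tv, and lower in 2. The mt-Tv family as a whole stood at 708.9 ± 55.4 CPM in control and at 501.9 ± 79.9 in SCI, without overlap (-0.57 ± 0.17, edgeR adjusted p = 0.258).

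In the tryptophan tRNA mt-Tw a pair of reads that differ by 1 base at the start also had unlike values. The 18-nt read stood at 221.6, 155.2 and 184.7 CPM in control and at 85.4, 117.9 and 74.1 in SCI, with all SCI libraries below all controls (-1.06 ± 0.23, edgeR adjusted p = 0.118, DESeq2 adjusted p = 0.0557). The 17-nt read, the most abundant of all 953, stood at 476.9, 429.1 and 462.6 CPM in control and at 547.4, 496.3 and 407.8 in SCI, where the groups overlapped (0.05 ± 0.15). The difference between these 2 reads was not tested. The 10 reads of the family together overlapped between groups, at 750.1 ± 89.0 and 665.7 ± 98.0 CPM (-0.25 ± 0.17, edgeR adjusted p = 0.593).

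Most of the less abundant mitochondrial tRNAs had a higher mean in SCI. The lysine tRNA mt-Tk stood at 102.5, 78.6 and 117.7 CPM in control and at 200.6, 174.2 and 146.1 in SCI, with no overlap (0.73 ± 0.20, edgeR adjusted p = 0.257). Of its 8 reads, 7 were higher in every SCI library, the 22-nt read most clearly at 13.4 ± 4.56 against 29.99 ± 4.82 CPM (1.12, edgeR adjusted p = 0.118, DESeq2 adjusted p = 0.0337). The cysteine tRNA mt-Tc (5192 to 5257, minus strand), named after its values were seen, stood at 21.1, 20.6 and 32.5 CPM in control and at 44.8, 48.7 and 40.7 in SCI. Of the 22 mitochondrial tRNAs, 8 were higher in all 3 SCI libraries, namely mt-Tk, mt-Tr, mt-Tc, mt-Ty, mt-Tn, mt-Tl1, mt-Td and mt-Tg. Only mt-Tv was lower without overlap, and 13 overlapped. Of all tested 3′ end families, 12.1% were higher and 8.69% lower without overlap. A sum over a whole tRNA can join several families, so these are not like shares. Of the 130 sums by ending and length class, which are larger, 29.2% were higher and 3.85% lower without overlap. Whether 8 of 22 is above a like background was not tested. The median log2 fold change of the 234 tested mitochondrial reads was 0.27, while both mitochondrial sums were below 0, and mt-Tv and mt-Tw hold most of the counts in those sums. mt-Tt, mt-Tp, mt-Tf, mt-Ts2 and mt-Tq overlapped, with 43.6 ± 10.5 and 37.3 ± 13.0 CPM for mt-Tq, the only one of these 5 with the lower mean in SCI.

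Among other reads both main reads of the proline-like family stood lower in every SCI library, called in DESeq2 and, in edgeR, only when SCI 1 was left out (adjusted p = 0.0378 and 0.0379). The 18-nt body has 1 difference from the 3′ end of n-TPtgg2, A6G, and the 17-nt body has it as A5G, with the gene's base first and positions counted from the read's 5′ end. The other proline tRNA genes were not analysed here, and both reads also occur in 1 annotated pseudogene, Gm15280. The 17-nt read stood at 85.0, 79.2 and 82.6 CPM in control and at 34.04, 32.7 and 25.9 in SCI (-1.45 ± 0.16, edgeR adjusted p = 0.117, DESeq2 adjusted p = 8.1e-05). The 18-nt read stood at 99.1, 115.5 and 108.4 CPM in control and at 49.97, 57.2 and 54.3 in SCI (-1.03 ± 0.14, edgeR adjusted p = 0.117, DESeq2 adjusted p = 0.00237). For both, the gap between the groups was wider than the range within either. The 22-nt read of the family with the most counts overlapped instead, at 9.20, 3.12 and 10.2 CPM in control and at 4.65, 9.87 and 4.97 in SCI. The family of 14 reads stood at 225.3 ± 9.17 CPM in control and at 109.5 ± 12.8 in SCI (-1.11 ± 0.16, edgeR adjusted p = 0.209, DESeq2 adjusted p = 0.00233).

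The remaining other reads named for their counts, apart from those with a run of T, overlapped between the groups. The 17-nt n-TVcac9 read (chromosome 13, 23446142 to 23446214) stood at 77.6, 88.7 and 89.8 CPM in control and at 165.9, 81.9 and 88.4 in SCI, where SCI 1 alone was high (0.35 ± 0.26, and -0.05 without SCI 1). The 18-nt read of the serine trio stood at 51.3, 78.1 and 90.8 CPM in control and at 81.4, 93.2 and 143.7 in SCI (0.51 ± 0.28, edgeR adjusted p = 0.414). The unassigned 18-nt read, whose body also occurs in a miRNA hairpin, stood at 124.8 ± 20.9 and 132.1 ± 24.9 CPM (0.06 ± 0.19). The family of the unassigned 22-nt pair stood at 115.0 ± 29.3 and 138.7 ± 39.4 CPM (0.22 ± 0.29), with 68.6% of its counts at 22 nt.

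3 rarer reads were, by the rule for naming reads, among those with the smallest p. The first below was higher and the others were lower in all 3 SCI libraries.
unassigned, 23 nt: gtacctccaggaacggtgcaCCA
unassigned, 22 nt: cgcgacctcagagggggcaCCA
unassigned, 24 nt: gttcgactcccggtgtgggaaCCA
The 23-nt read stood at 10.8, 10.9 and 14.1 CPM in control and at 57.8, 27.5 and 24.45 in SCI (1.57 ± 0.34), the 22-nt read at 9.81, 4.44 and 5.19 and at 0.752, 1.92 and 0.753 (-2.53 ± 0.53). The 24-nt read stood at 3.88, 4.06 and 3.02 CPM in control and at 1.16, 1.54 and 1.05 in SCI (-1.57 ± 0.30). The edgeR adjusted p was 0.117 for all 3 and 0.0447 for the 23-nt read without SCI 1, with DESeq2 adjusted p of 0.00681, 0.00147 and 0.00742. A 19-nt read within the leucine tRNA mt-Tl2 stood at 0.290 ± 0.075 and 0.984 ± 0.062 CPM (1.70 ± 0.34, edgeR adjusted p = 0.117), but only 27.7% of the reads of its body carried CCA.

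At the 19th base from the 3′ end, position 58, many reads carried T in place of A. Pairs of 22-nt reads that differ only there, written A4T for the A read against the T read with positions from the 5′ end, were compared where the pair had at least 500 reads. There were 10 such pairs, and the share of T in the control libraries ran from 1.78% to 89.6% on average. The unassigned pair printed above had T in 71.7%, 75.6% and 76.8% of control and 71.4%, 77.4% and 76.9% of SCI reads, with full overlap. The pair of the glycine tRNA gene n-TGccc7 (chromosome 17, 25875088 to 25875158), whose gene has the A, had T in 74.8% (95% Wilson interval 70.5% to 78.6%), 75.8% (69.2% to 81.4%) and 85.9% (83.5% to 88.0%) of control reads. In SCI it had T in 90.1% (87.1% to 92.5%), 92.0% (90.3% to 93.4%) and 92.2% (90.6% to 93.6%), so every SCI library lay above every control. The 19-nt pair of the same gene overlapped, with T in 52.6% ± 14.1 of control and 68.9% ± 15.8 of SCI reads. Of the 10 pairs, 2 were higher in all SCI libraries and 0 lower, the other at 2.17% ± 1.08 and 4.61% ± 1.44. Over all 55 pairs of any length and base, with at least 109 reads each, 7 were higher and 2 lower without overlap. Adapter-like pairs are among the 55, and their varying base is not position 58. Such a pair, with G in place of A, is among the lower ones, at 90.7% ± 8.07 and 59.3% ± 8.85. Whether a T at this base comes from another gene copy or from the copying of a modified base was not tested, and no test of the shares was made.

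The tail itself was read from bodies of at least 17 bases, followed by nothing, C, CC or CCA. The shortest CCA reads, among them all of 17 to 18 nt, were thus left out. For mitochondrial tRNAs, reads longer than 24 nt entered. mt-Tk had 21113 reads with CCA here against 15987 counts over its chosen reads, and mt-Tw 13172 against 83508. All reads of 25 to 34 nt that end in CCA ran from 761.7 CPM in SCI 1 to 2766 in SCI 2. Their part in these shares was not tested. For mitochondrial tRNAs the complete CCA stood on 74.9% ± 5.36 of control and 71.1% ± 2.30 of SCI reads, CC on 12.6% ± 3.57 and 12.3% ± 0.608, a single C on 4.83% ± 1.12 and 7.52% ± 1.48, and no tail on 7.09% ± 0.933 and 8.58% ± 1.60. In each of these states the groups overlapped. For mt-Tv no tail was on 6.27%, 7.34% and 9.09% of control and 14.3%, 10.8% and 11.8% of SCI reads, and the groups were apart. Over the 22 mitochondrial tRNAs this share was without overlap higher in 4 and lower in 2, mt-Tw with 1.66%, 1.86% and 1.74% against 1.55%, 1.32% and 1.48%, and mt-Tc with 21.2%, 10.5% and 12.7% against 8.28%, 8.49% and 7.48%. The share with a single C was without overlap higher in 3 and lower in 0, that with CC higher in 1 and lower in 5. The share with the complete CCA was higher in 1 and lower in 1. For the CCA-specific other reads, CC stood on 20.8%, 22.9% and 20.1% of control and 18.1%, 17.8% and 17.4% of SCI reads, and no tail on 8.58%, 7.25% and 8.69% and on 10.97%, 10.4% and 10.7%. Both separated the groups, in opposite directions, while the complete CCA overlapped at 61.5% ± 1.80 and 62.5% ± 1.10. The 305 bodies behind these shares were not limited to matched tRNA genes. They include a 21-nt read with a run of T, with 16579 counts, and adapter-like reads, all described further on. The part of such reads in the separation was not tested. A doubled CCACCA, a mark known from tRNAs sent to decay, was on 0.223% ± 0.013 and 0.224% ± 0.032 of mitochondrial reads and on 0.154% ± 0.050 and 0.119% ± 0.050 of other reads. These shares were not tested.

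2 sets among the other reads, picked out after their values were seen, stood apart. In 40 members the letters are those of widely used small RNA sequencing adapters. The first 20 share a stretch of 13 bases whose bodies are followed by up to all 64 combinations of 3 bases. They summed to 0.698, 7.94 and 2.78 CPM in control and to 11.5, 67.3 and 436.2 in SCI, mostly in SCI 3. The second 20 share their last 17 bases and differ in the bases before, and summed to 0.174, 8.50 and 8.58 CPM in control and to 14.2, 43.8 and 47.7 in SCI. Without these 40, other reads of 19 to 24 nt stood at 1367 ± 298 and 1567 ± 204 CPM, and 82 members were higher at an unadjusted p under 0.05 in place of 101 (9.53% of those tested).

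The other set is 23 reads with a run of T before a shared stretch, with 48729 counts or 7.50% of all and no match in the annotation used here. CCA followed only part of its bodies' reads. For the 21-nt read printed below that part was 81.5%, so this read counts among the CCA-specific ones.
T-run read, 21 nt: tttttttcggcggtagaaCCA
This read, the most abundant of the other reads, stood at 47.1, 20.3 and 141.5 CPM in control and at 155.9, 263.5 and 169.2 in SCI, with no overlap but with controls far apart (1.48 ± 0.63, edgeR adjusted p = 0.288). The read with 3 more T bases stood at 42.1 ± 12.1 and 28.9 ± 7.06 CPM and overlapped. Over all 23 reads the sums overlapped, at 317.1 ± 167.8 and 477.2 ± 142.7 CPM.

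The cortical miRNAs that check the tissue label were high in every library, with hairpins of Mir124 at 7338 to 13716 CPM, Mir9 at 82812 to 106324 CPM, and Mir128 at 56283 to 67181 CPM. Markers of other tissues stood at 2.66 to 5.26 CPM (Mir122, liver), 12.3 to 27.6 (Mir375, endocrine), at most 0.769 (Mir208a, heart) and 368.5 to 425.9 (Mir1a, muscle). Libraries held 10585062 to 24480988 counts, so that 1 count is 0.0408 to 0.0945 CPM. Reads of 30 to 34 nt took 3.66% of SCI 2 and 2.31% of SCI 3 against 0.543% to 1.33% of the other 4 libraries, and their part in the values above was not tested. Just inside the summed count of 50 were an adapter-like read and acctgcctctgcctccCCA, both with 50 counts, and just outside it were actccccaccaccagcacCCA and atatgggactgagaCCA, both with 49.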

How the data were processed

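For each of the 6 libraries the authors deposited raw counts of distinct reads, 17 to 34 nt long, per the file headers. GRCm38 is the build per the submitters' processing notes. Trimmer and aligner are not given in the sources used here. HD adapters with degenerate ends were used, per the labels' protocols.

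Reads were matched without mismatch to GENCODE M21 hairpins and mitochondrial tRNAs with Python 3.11.15 and pandas 2.3.3. Counts were tested with edgeR 4.0.16 in R 4.3.3 (quasi-likelihood, TMM, filterByExpr with a minimum count of 10, all 6 libraries, no covariates, deposited totals as library size), and ratios with limma 3.58.1 on log2 values with a pseudocount of 0.5. Benjamini-Hochberg adjusted p under 0.05 counted as called. For edgeR, SE is the fold change over the root of F, and for limma it is the standard error from its fit. Alternatives included DESeq2 1.42.0. The procedure was tested on simulated data. The reads and lists were chosen with earlier results of these data known. Named are the 10 reads and 8 families with most counts, the 5 reads of smallest p per direction, the 8 largest mitochondrial tRNAs and the 2 reads on each side of the count minimum. Adapter-like reads named by this rule are given as a set.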

Additional observations from a re-analysis of the deposited data

Results flagged for a closer look

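Reads that hold the same adapter-like stretches as 40 of the CCA reads, but with any ending and length, were more frequent in SCI libraries than in the controls. Those with the first stretch, of 13 bases, took 0.033%, 0.280% and 0.120% of control 1, 2 and 3 and 0.254%, 0.935% and 2.74% of SCI 1, 2 and 3, so SCI 1 lay below control 2. Those with the second, of 14 bases, took 0.0017%, 0.0063% and 0.0072% of the control and 0.0102%, 0.034% and 0.0401% of the SCI libraries. Their part in the other values was not tested.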

How the results depend on the processing

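Over the other settings 132 of 144 values of the main comparisons stayed the same. For counts of called reads or families this means that they stayed at 0. For fold changes and ratios it means that they kept their direction and stayed uncalled. Of the rest, 6 turned in direction and 6 counts moved from 0. None of these values was called in the main fits. In DESeq2, 19 reads were called higher and 10 lower, and 5 and 5 families; without single libraries edgeR called 0 to 24 reads higher and 0 to 4 lower, the highest without SCI 1. The log2 fold change of other reads of 17 to 18 nt turned to 0.12 with total count scaling and 0.020 without reads that match a transcript, and ran from -0.14 to 0.025 without single libraries (0.015 without control 3, 0.025 without SCI 2). Without single libraries the log2 fold change of mitochondrial reads ran from -0.28 to -0.032 at 17 to 18 nt and from -0.34 to -0.063 at 19 to 24 nt, nearest 0 without SCI 3. That of other reads of 19 to 24 nt ran from 0.065 (without control 2) to 0.33 (without control 3), and was 0.039 without reads whose body matches a hairpin and 0.33 with total count scaling. The other reads' short over long ratio ran from -0.39 (without SCI 1) to -0.081 (without SCI 2). The mitochondrial short over long ratio turned to -0.15 with the border at 19 nt and ran from -0.0048 (without control 1) to 0.16 without single libraries. Single values near 0 turned too when 1 library was left out. The range was -0.063 to 0.14 for the 17-nt mt-Tw read, -0.21 to 0.14 for the 18-nt mt-Tv read, -0.080 to 0.18 for the unassigned 18-nt read and -0.053 to 0.51 for the n-TVcac9 read. For families it was -0.18 to 0.11 for that of the unassigned 18-nt read (0.0072 with total count scaling), -0.041 to 0.30 for n-TVcac9 and -0.011 to 0.43 for the unassigned 22-nt pair. The cause was not tested. Reads at an unadjusted p under 0.05 numbered 62 to 116 higher and 43 to 81 lower without single libraries, against 101 and 66.

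Libraries with the same replicate number correlated at 0.27, -0.0092 and -0.068 in their deviations, so the numbers were not taken to pair them. With a replicate block edgeR called 0 reads and 0 families, and the 4 sums were -0.198, -0.267, -0.06 and 0.16. The ratios were 0.068 and -0.222. The 2 settings without adapter-like reads or with CCA-specific reads alone were chosen after seeing the data. With 3 libraries a group, reads under 1 CPM rest on few counts.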
